A study of Mus musculus with 5 samples.

Results

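Chromatin regulators were examined in bone marrow-derived macrophages (BMMs) with and without semaphorin 3G (Sema3G), a secreted protein of the class 3 semaphorins. They were taken by gene symbol: every gene of the deposited table whose name starts with a Kmt, Kdm, Setd, Chd, Arid, Brd, Hdac or Kat stem and a number (Setdb included) or with Smarc, together with Ep300, Crebbp, Ezh1, Ezh2, Ash1l and Nsd1. This gave 100 of the 24419 genes listed. The rule uses symbols only, but it was set with earlier results of these data known. By its letters the rule also takes Chd3os, which is not a remodeler, and the pseudogene Smarca5-ps. The BMMs were grown from the bone marrow of C57BL/6 mice with 50 ng/ml M-CSF for 5 days, and all 5 samples were activated with 100 ng/ml LPS, so that the controls carry the LPS stimulus too. PBS was then given to 2 samples and 100 ng/ml recombinant Sema3G to 3 samples, for 18 h. The study's methods describe the recombinant protein as tagged with Fc, and the control was PBS, not an Fc protein. The labels do not say whether the samples of a group came from separate cultures or mice, so p-values measure the spread between these samples, which may be technical.

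DNA in the nucleus is wound around histones, and most of the genes described here code for proteins that mark, read or move them. Methyltransferases and acetyltransferases write marks on histone tails, demethylases and deacetylases remove them, bromodomain proteins bind acetylated histones, and the CHD and SMARC ATPases use ATP to slide or evict nucleosomes, often in complexes with ARID subunits. In macrophages, such proteins set which inflammatory genes can respond to LPS.

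The libraries count RNA 3′ ends with unique molecular identifiers (UMIs), 1 per RNA molecule captured. By design a level then does not grow with the length of the RNA, which lets levels of different genes be set side by side. Whether some UMIs arose inside longer RNAs was not tested. Levels are given in CPM, UMIs scaled to a fixed library total, and the totals were between 1798469 and 2215855 UMIs, and 3 UMIs correspond to 1.35 to 1.67 CPM. At least 1 UMI was found for 97 of the 100 genes, and 3 were at 0 in all libraries. The 91 genes whose mean reached 1 CPM were tested, and the other 9 had at most 9 UMIs over all libraries. All 9 macrophage markers looked up (Adgre1, Cd68, Csf1r, Itgam, Lyz2, Cd14, Fcgr1, Mertk and Spi1) were detected, and their summed level was 10299 to 13156 CPM with PBS and 9361 to 9998 CPM with Sema3G. Of 8 lymphoid markers 7 were at 0, markers of neutrophils, dendritic cells, and mast cells and basophils each summed to at most 2.68 CPM, and 5 stromal markers summed to 14.4 to 42.9 CPM.

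Sema3G replicates 2 and 3 were the most alike of the libraries. The chi-square per degree of freedom of their UMIs was 1.77 over all genes and 1.41 over the members, against 6.57 to 29.6 over all genes in the other pairs, and 2.11 to 11.0 over the members. They differed by more than counting noise, which does not show that they came from separate cultures, and they were counted as the separate samples that the labels name.

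Among the chromatin regulators, 6 were called higher with Sema3G and 0 were called lower by limma at an adjusted p below 0.05 (Benjamini-Hochberg over all genes tested). They were Arid4b, Ash1l, Arid4a, Smarca2, Chd1 and Chd9, with log2 differences between 0.91 and 1.48. These 6 are 6.59% of the members tested, against 1.59% of all 10088 genes called higher and 0.218% called lower. At an unadjusted p under 0.05, 23 members were higher and 6 were lower, while 6.83% of all genes tested were higher at that limit and 14.2% lower, and the counts per family given further on are to be read against these shares. On UMI counts recovered from the CPM values, edgeR's quasi-likelihood test was also run, and 12 of 85 members were called higher (14.1%, against 4.05% of 8144 genes) and 0 lower, and DESeq2 called 10 of 97 members higher (against 1.83% of 12792 genes) and 0 lower. All 6 members called by limma were also called by both count tools. The number called by limma was 3 without PBS replicate 1, 12 without Sema3G replicate 1, 1 without Sema3G replicate 2 and 2 without Sema3G replicate 3. Over all genes, 88, 270, 27 and 32 were called higher in the same order, in place of 160. The number of members called was 0 with the share of Rn45s, the ribosomal RNA precursor, as a covariate, and with Sema3G replicates 2 and 3 summed into 1 library it was 1, Arid4b (adjusted p = 0.0306 from limma). Of all genes, 98 were called higher with the covariate and 19 with the sum. With the sum the log2 differences of the other 5 were 1.12 for Ash1l, 0.93 for Arid4a, 0.91 for Smarca2, 0.85 for Chd9 and 0.84 for Chd1. In RNA from whole cultures, fewer cells with an RNA and less of it per cell cannot be told apart.

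All differences are Sema3G minus PBS of the mean log2(CPM + 1), a scale that understates the change of genes with few UMIs. The median log2 difference over all genes tested was -0.22, and each difference is to be read against that value. Listed genes held 77.6% and 75.6% of the library total with PBS and 71.3%, 67.1% and 65.9% with Sema3G. CPM is scaled to the full total, so this share enters every difference. Scaling by edgeR's TMM factors moved the median of all genes to -0.04, a shift of 0.19. With that scaling 11 members were called higher (12.1%, against 3.19% of all genes) and 0 lower, and over all genes there were 322 higher and 3 lower calls in place of 160 higher and 22 lower. The median log2 difference of the members was 0.12 as deposited and 0.30 after the scaling, and 69 of the 91 lay over the median of all genes.

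Arid4b had the largest log2 difference among the members called. It codes for a subunit of the Sin3 histone deacetylase complex that binds the retinoblastoma protein. Its UMIs numbered 69 and 101 under PBS, and 193, 304 and 310 under Sema3G. The groups did not overlap, and the level went from 46.0 ± 11.4 CPM (SD, n = 2) to 129 ± 19.1 CPM (SD, n = 3). Its log2 difference was 1.48 with a standard error of 0.21, and the limma adjusted p was 0.000962. It was called with each of the 5 libraries left out in turn, with adjusted p values from limma of up to 0.0118.

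Arid4a, the close relative of Arid4b in the same complex, rose from 74.4 ± 22.0 CPM (SD, n = 2) to 146 ± 19.1 CPM (SD, n = 3). Its UMIs were 107 and 168 with PBS and 224, 337 and 350 with Sema3G, and every Sema3G library lay above both PBS libraries. The log2 difference was 0.99 (standard error 0.21, adjusted p = 0.0232 from limma). The limma adjusted p was 0.161 without PBS replicate 1, 0.155 without Sema3G replicate 2 and 0.152 without Sema3G replicate 3, at log2 differences of 0.68, 0.95 and 0.91.

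Ash1l, a Trithorax-group enzyme that methylates lysine 36 of histone H3, had 120 and 153 UMIs with PBS and 240, 413 and 433 UMIs with Sema3G. The libraries given Sema3G were all above those given PBS, at 173 ± 35.0 CPM (SD, n = 3) against 73.9 ± 11.3 CPM (SD, n = 2). The log2 difference was 1.20 (standard error 0.21, adjusted p = 0.00531 from limma). The adjusted p from limma was 0.0588 without Sema3G replicate 2, at a log2 difference of 1.14, and below 0.05 without any other single library.

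Smarca2 codes for BRM, 1 of the alternative ATPases of the SWI/SNF (BAF) remodeling complexes. It had 58 and 66 UMIs with PBS and 107, 150 and 151 UMIs with Sema3G, again with no overlap. The mean level went from 33.6 ± 2.45 CPM (SD, n = 2) to 65.6 ± 5.37 CPM (SD, n = 3), and the log2 difference was 0.94 (standard error 0.21, adjusted p = 0.0259 from limma). The limma adjusted p was 0.0982 without PBS replicate 1, 0.195 without Sema3G replicate 2 and 0.167 without Sema3G replicate 3, at log2 differences of 0.87, 0.92 and 0.90.

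Of the CHD remodelers, Chd1 binds histone H3 methylated at lysine 4, and Chd9 belongs to the subfamily of Chd6 to Chd9. Chd1 had 72 and 110 UMIs with PBS and 129, 239 and 225 UMIs with Sema3G, a log2 difference of 0.93 (standard error 0.23, adjusted p = 0.0466 from limma). Chd9 had 48 and 61 UMIs with PBS and 85, 134 and 133 UMIs with Sema3G, a log2 difference of 0.91 (standard error 0.22, adjusted p = 0.0447 from limma). Neither gene had overlapping groups, and the levels of both in Sema3G replicate 1 were nearer to PBS than those in the other Sema3G libraries. Leaving out PBS replicate 1, Sema3G replicate 2 or Sema3G replicate 3 gave limma adjusted p values of 0.231, 0.284 and 0.237 for Chd1 and of 0.173, 0.282 and 0.248 for Chd9. The log2 differences were then 0.65, 0.82 and 0.85 for Chd1 and 0.76, 0.85 and 0.84 for Chd9. With no filter on low values the adjusted p from limma was 0.0689 for Chd1 and 0.0622 for Chd9, with a pseudocount of 0.1 it was 0.0634 and 0.0585, and with a mean of at least 5 CPM it was 0.0505 and 0.0473.

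**Figure D1:**
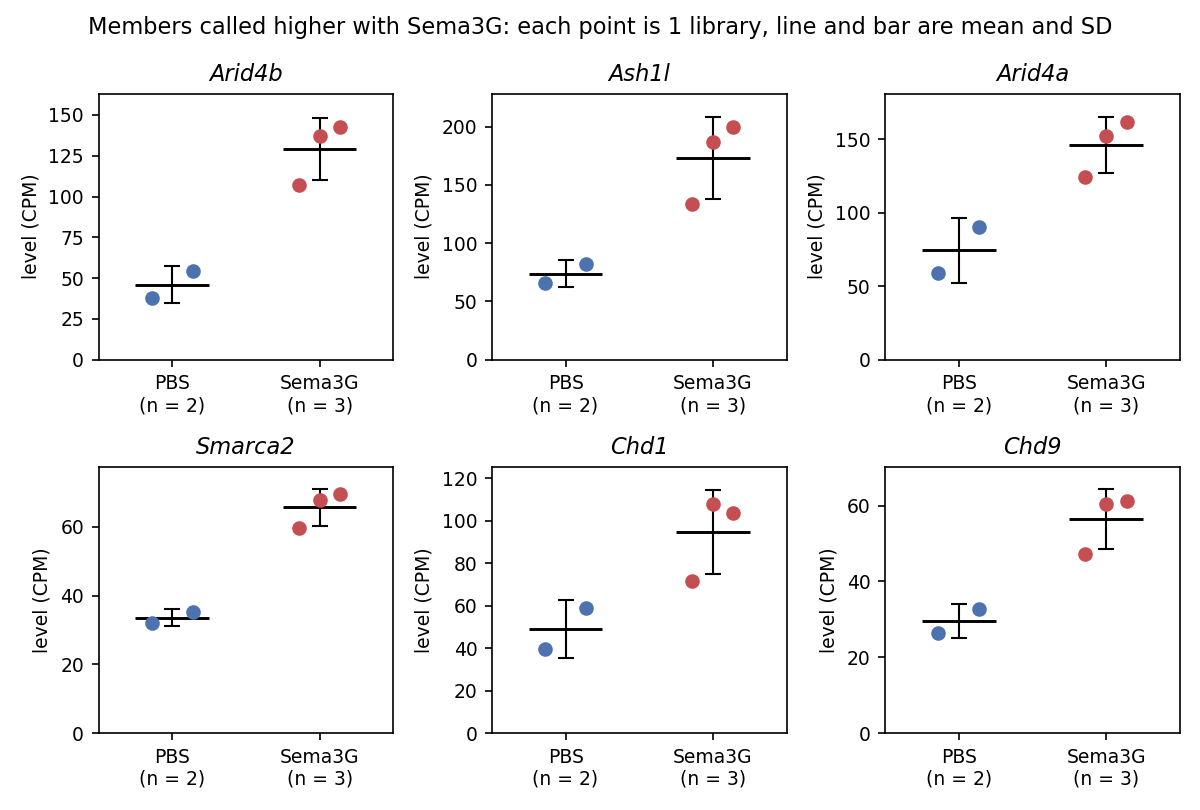
Level in CPM of the 6 chromatin regulators called by limma, with 1 panel per gene and a vertical axis from 0. Each point is 1 library, the horizontal line is the group mean and the bar its SD; in every panel the 3 Sema3G libraries lie above both PBS libraries, from Arid4b (46.0 to 129 CPM) to Chd9 (29.5 to 56.3 CPM).

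The 6 genes lie on different chromosomes of GRCm38 (mm10), all on the plus strand: Arid4b at chr13:14063232-14199603, Ash1l at chr3:88950622-89079375, Arid4a at chr12:71015990-71098592, Smarca2 at chr19:26605050-26778322, Chd1 at chr17:15704967-15772610 and Chd9 at chr8:90828352-91054516. Exons of Ash1l overlap those of Dap3 on the opposite strand, and exons of Arid4b overlap those of Ggps1, also on the opposite strand. Smarca2 shares exon positions with 4931403E22Rik, an antisense gene with 0 UMIs in all 5 libraries, and Chd9 with the antisense gene Gm45641, whose values were not used here. The sources used here do not say whether the counting used the strand, so reads of such partners may not have been told apart. Dap3 had a log2 difference of -0.27 (adjusted p = 0.549 from limma) and Ggps1 of 0.71 (adjusted p = 0.225 from limma).

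RefSeq gives a promoter for 73 of the 100 genes, Arid4b, Smarca2 and Chd9 among them; Ash1l, Arid4a and Chd1 are without an entry. The 250 bases before the RefSeq start of these 3 genes (GRCm38.p6, plus strand, 5′ to 3′) are shown because the genes were called together and can be read here for shared letters. Capitals mark 3 motifs searched on both strands: the GC box GGGCGG, the CCAAT box CCAAT and the ETS core CCGGAA. The windows are chr13:14063534-14063783 for Arid4b, chr19:26604910-26605159 for Smarca2 and chr8:90828585-90828834 for Chd9. Those of Arid4b and Chd9 lie inside the longer gene models above, and that of Smarca2 runs past the start of its gene model.
Arid4b: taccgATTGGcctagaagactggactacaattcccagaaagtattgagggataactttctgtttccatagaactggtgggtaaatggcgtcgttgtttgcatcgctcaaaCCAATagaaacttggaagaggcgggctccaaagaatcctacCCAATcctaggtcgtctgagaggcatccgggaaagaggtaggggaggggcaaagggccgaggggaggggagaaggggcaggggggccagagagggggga
Smarca2: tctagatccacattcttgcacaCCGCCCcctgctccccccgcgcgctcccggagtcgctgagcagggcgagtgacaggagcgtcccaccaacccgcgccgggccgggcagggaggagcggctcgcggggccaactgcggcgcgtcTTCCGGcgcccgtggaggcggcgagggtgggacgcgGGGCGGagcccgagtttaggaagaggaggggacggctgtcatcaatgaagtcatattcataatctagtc
Chd9: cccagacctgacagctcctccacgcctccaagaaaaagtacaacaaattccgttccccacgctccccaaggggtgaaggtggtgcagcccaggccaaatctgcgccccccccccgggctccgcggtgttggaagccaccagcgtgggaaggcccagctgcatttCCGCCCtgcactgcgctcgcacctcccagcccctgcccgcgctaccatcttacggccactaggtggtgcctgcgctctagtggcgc
The Arid4b window held 3 CCAAT boxes and no GC box, that of Smarca2 held 2 GC boxes and 1 ETS core, and that of Chd9 held 1 GC box, so no motif was shared by all of them. Of the 65 tested members with an entry, 41 held a GC box (63.1%), 23 a CCAAT box (35.4%) and 17 an ETS core (26.2%). Over all 27025 promoters of this length, of tested and untested genes alike, the shares were 33.0%, 34.5% and 12.3%. The windows of members were richer in G and C, with a median of 61.6% against 52.0%, and GC content bears on how often the first and the last of these motifs occur. The cAMP response element TGACGTCA and the NF-kB consensus were in the windows of 0 members, and in 1.60% and 3.74% of all promoters. No match says only that these letters are not in this window.

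Among the writers, all 20 histone methyltransferases were tested. Ash1l alone was called by limma and 0 were lower, edgeR called 3 higher, and the family median was a log2 difference of 0.15. The groups did not overlap in 9 genes, 7 with all Sema3G libraries above and 2 with all below. For comparison, 11.9% of all genes tested lay above in this way and 26.5% below, and over all 91 members tested the counts were 28 above (30.8%), 17 below (18.7%) and 46 overlapping. Setd5, a SET domain protein, had 120 and 118 UMIs with PBS and 164, 231 and 225 UMIs with Sema3G, and was called by edgeR (adjusted p = 0.0224) but not by limma (log2 difference 0.62, adjusted p = 0.0977). Nsd1, which dimethylates lysine 36 of histone H3 as Ash1l does, had 148 and 117 UMIs with PBS and 174, 224 and 218 UMIs with Sema3G. Its adjusted p was 0.0484 from edgeR, 0.182 from limma and 0.0852 from DESeq2.

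The 6 methyltransferases for lysine 4 of histone H3 had a median log2 difference of -0.01, and none was called by limma, edgeR or DESeq2. Of these, 1 had an unadjusted limma p under 0.05 and was higher. Kmt2a (MLL1) was at 112 ± 22.1 CPM (SD, n = 2) under PBS and at 155 ± 13.5 CPM (SD, n = 3) under Sema3G, every Sema3G library lying above (adjusted p = 0.182 from limma). Kmt2d, which marks enhancers, overlapped between the groups at 47.4 ± 3.35 and 40.9 ± 6.02 CPM, a log2 difference of -0.22 (adjusted p = 0.578 from limma). Kmt2e, which has a SET domain but no clear methyltransferase activity, was the most abundant of the family at 259 ± 12.4 and 320 ± 47.4 CPM (adjusted p = 0.375 from limma).

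The writers of repressive marks named here were not called by limma or edgeR. Ezh1 and Ezh2, the alternative catalytic subunits of Polycomb repressive complex 2 for lysine 27 of histone H3, had different levels. Ezh1 had 100 and 76 UMIs with PBS and 58, 84 and 65 UMIs with Sema3G, while Ezh2 had 17 and 12 UMIs with PBS and 24, 25 and 16 UMIs with Sema3G. All Ezh1 levels with Sema3G were below those with PBS in CPM (log2 difference -0.50, adjusted p = 0.225 from limma), and those of Ezh2 overlapped (0.38, adjusted p = 0.551). Setdb1, a methyltransferase for lysine 9 of histone H3, had 10.6 ± 2.11 and 9.09 ± 1.72 CPM.

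Of 18 histone demethylases 16 were tested, and 0 were called by limma, edgeR or DESeq2. At an unadjusted limma p under 0.05, 4 were higher and 2 were lower. Kdm3b and Kdm4b, both of which can act on lysine 9 of histone H3, were the highest and the lowest of those averaging 5 CPM or more. Kdm3b had 15 and 27 UMIs with PBS and 31, 47 and 42 UMIs with Sema3G (log2 difference 0.76, adjusted p = 0.175 from limma). Kdm4b had 55 and 77 UMIs with PBS and 43, 43 and 42 UMIs with Sema3G (log2 difference -0.74, adjusted p = 0.127 from limma). In both genes the groups did not overlap. Kdm6b (JMJD3), the lysine 27 demethylase known to be induced by LPS, had 116 and 90 UMIs with PBS and 75, 108 and 112 UMIs with Sema3G, and its log2 difference was -0.23, close to the median of all genes (adjusted p = 0.551 from limma). Kdm7a was the most abundant demethylase, at 127 ± 31.8 and 135 ± 10.8 CPM, with overlapping groups. The 6 demethylases for lysine 4 had a median log2 difference of 0.29, and 3 were higher and 0 lower at an unadjusted limma p under 0.05. Kdm5c was the lowest of them, with 34.7 ± 5.50 and 27.6 ± 1.51 CPM (log2 difference -0.31, adjusted p = 0.445 from limma).

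The 9 histone acetyltransferases had a median log2 difference of 0.32, and none was called by limma or DESeq2. At an unadjusted limma p under 0.05, 2 were higher and 1 was lower. Crebbp (CBP), which with Ep300 (p300) acetylates lysine 27 of histone H3 at enhancers, was called by edgeR (adjusted p = 0.0402). It had 134 and 142 UMIs with PBS and 194, 219 and 246 UMIs with Sema3G, with no overlap (log2 difference 0.50, adjusted p = 0.146 from limma). Ep300 had 95 and 153 UMIs with PBS and 138, 190 and 195 UMIs with Sema3G, and its groups overlapped in CPM (log2 difference 0.36, adjusted p = 0.345 from limma). Ep300 varied more between the PBS libraries than Crebbp did. Kat6a (MOZ) had 31 and 53 UMIs with PBS and 61, 78 and 98 UMIs with Sema3G (log2 difference 0.75, adjusted p = 0.129 from limma). Kat8 (MOF), which acetylates lysine 16 of histone H4, had 34 and 30 UMIs with PBS and 14, 32 and 11 UMIs with Sema3G, and its log2 difference of -0.97 was the lowest of the members tested (adjusted p = 0.160 from limma).

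Of 11 histone deacetylase genes 9 were tested. In 0 of them all Sema3G libraries lay above both PBS libraries and in 2 all lay below, counts near the shares of 11.9% and 26.5% over all genes. By the tests 0 were called in either direction by limma, edgeR or DESeq2, with 0 higher and 1 lower at an unadjusted limma p under 0.05. The median log2 difference was -0.13 as deposited and 0.02 with TMM scaling, so its sign depends on the scaling. It lay over the median of all genes in both, which was -0.22 and -0.04. The class IIa enzymes Hdac5 and Hdac7, which shuttle between nucleus and cytoplasm, were the most abundant. Hdac5 had 144 and 143 UMIs with PBS and 91, 132 and 123 UMIs with Sema3G (log2 difference -0.48, adjusted p = 0.182 from limma). Hdac7 had 177 and 176 UMIs with PBS and 142, 140 and 175 UMIs with Sema3G (log2 difference -0.37, adjusted p = 0.284 from limma). Both lay below PBS in every Sema3G library in CPM. The class I enzymes Hdac1, found in the NuRD and Sin3 complexes, and Hdac3, the partner of the NCoR corepressors, had 7 to 29 UMIs per library and overlapped between the groups. Hdac4, of class IIa, had the highest log2 difference at 0.40 (adjusted p = 0.554 from limma), from 9 to 21 UMIs per library.

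The 7 bromodomain proteins had a median log2 difference of 0.39, and 4 lay above both PBS libraries in every Sema3G library. None was called by limma, 2 were higher at an unadjusted p under 0.05, and Brd1 was called by edgeR (adjusted p = 0.0345) and DESeq2 (adjusted p = 0.0407). Brd1, a scaffold of the MOZ and HBO1 acetyltransferase complexes, had 114 and 123 UMIs with PBS and 151, 229 and 233 UMIs with Sema3G (log2 difference 0.60, adjusted p = 0.115 from limma). Brd2, a BET protein that recruits the transcription machinery to acetylated chromatin, was the most abundant of the family, with overlapping groups at 285 ± 22.1 CPM (SD, n = 2) and 284 ± 34.6 CPM (SD, n = 3). Brd9, a subunit of a BAF complex without ARID proteins, had 36.1 ± 1.26 and 28.6 ± 4.01 CPM (log2 difference -0.33, adjusted p = 0.414 from limma).

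The CHD remodelers had the highest median of the families, at a log2 difference of 0.58 over 9 tested genes, and 8 of the 9 were over the median of all genes. Besides Chd1 and Chd9, Chd2 was called by edgeR (adjusted p = 0.0326), and 5 were higher and 0 lower at an unadjusted limma p under 0.05. Chd2 had 94 and 106 UMIs with PBS and 129, 198 and 239 UMIs with Sema3G (log2 difference 0.71, adjusted p = 0.0922 from limma). Chd3 and Chd4, the alternative ATPases of the NuRD complex, lay on both sides of 0. Chd4 had 335 and 472 UMIs with PBS and 445, 595 and 648 UMIs with Sema3G (log2 difference 0.33, adjusted p = 0.335 from limma). Chd3 had 454 and 516 UMIs with PBS and 402, 460 and 375 UMIs with Sema3G (log2 difference -0.39, adjusted p = 0.239 from limma), and was below PBS in all 3 Sema3G libraries.

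Of the 14 SMARC genes 12 were tested, and Smarca2 was the only one called by limma or edgeR. Smarca4 (BRG1), the ATPase that takes the place of BRM in other BAF complexes, had 173 and 122 UMIs with PBS and 157, 161 and 157 UMIs with Sema3G (log2 difference -0.03, adjusted p = 0.951 from limma). Smarcc2 (BAF170), a scaffold subunit, was the most abundant at 111 ± 6.63 and 118 ± 8.16 CPM. Smarcb1 (SNF5), a core subunit, had 48 and 24 UMIs with PBS and 28, 25 and 24 UMIs with Sema3G, and its log2 difference of -0.53 (adjusted p = 0.361 from limma) went with overlapping groups, PBS replicate 1 standing above the other libraries. One gene in the family is a pseudogene, Smarca5-ps, with 1 and 1 UMIs with PBS and 0, 8 and 3 UMIs with Sema3G.

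Of the 9 ARID genes tested, Arid4a, Arid4b and, by edgeR, Arid5b (adjusted p = 0.0164) were called higher. The other 6 had log2 differences from -0.63 to -0.20, the family median was -0.20, and 5 of the 9 were over the median of all genes. Arid5b, a partner of a histone demethylase, had 136 and 98 UMIs with PBS and 171, 244 and 234 UMIs with Sema3G (log2 difference 0.72, adjusted p = 0.0772 from limma). Arid1a (BAF250a), which defines the canonical BAF complex, had 159 and 163 UMIs with PBS and 132, 168 and 171 UMIs with Sema3G (log2 difference -0.20, adjusted p = 0.551 from limma). Arid5a, known to bind and stabilise Il6 mRNA, had 28 and 26 UMIs with PBS and 19, 26 and 13 UMIs with Sema3G (log2 difference -0.63, adjusted p = 0.298 from limma). The family median was within 0.04 of that of all genes both as deposited and after scaling by TMM factors.

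**Figure D2:**
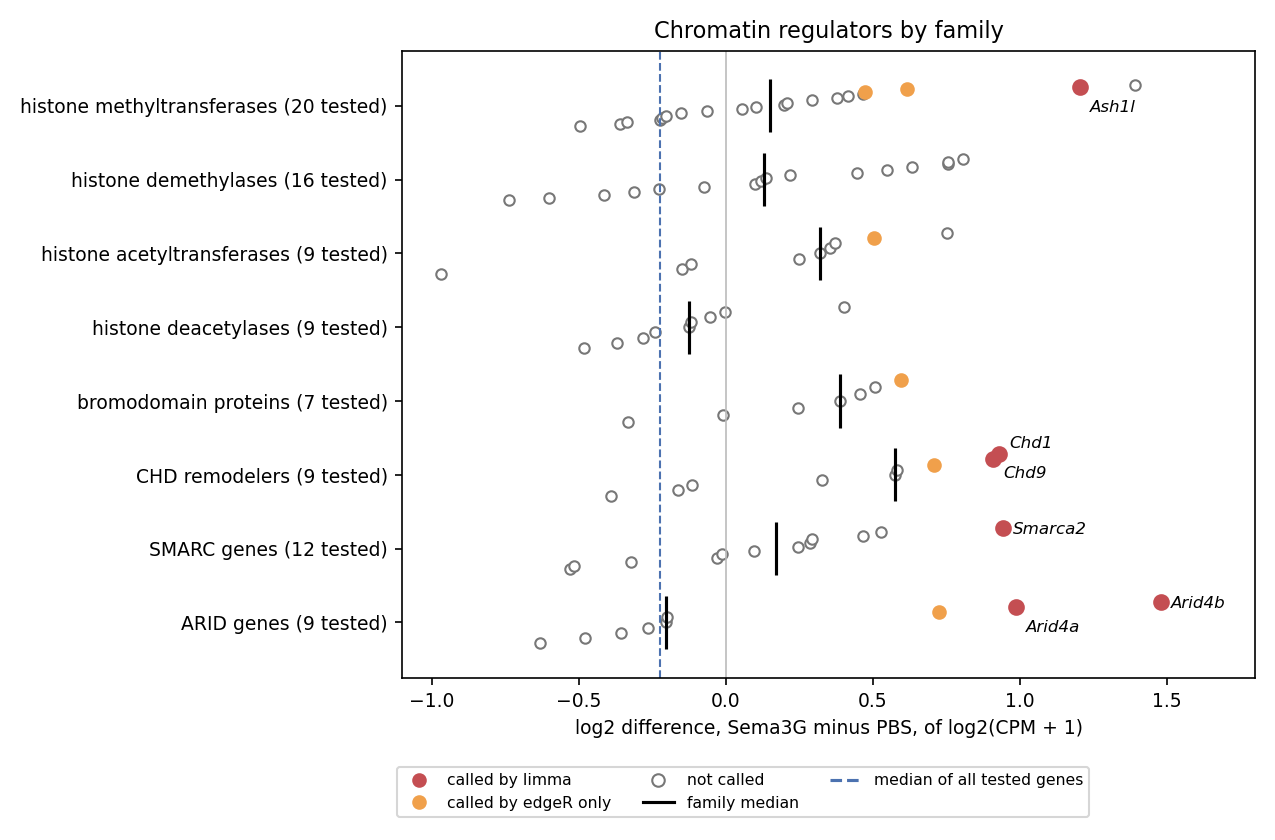
Log2 difference (Sema3G minus PBS, of log2(CPM + 1)) of the 91 tested chromatin regulators, with 1 row per family and 1 point per gene. Red points were called by limma and orange ones by edgeR only; the black line is the family median, highest for the CHD remodelers at 0.58 and lowest for the ARID genes at -0.20, and the dashed line is the median of all tested genes at -0.22.

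Ratios of related genes within a library do not depend on its scaling. The pairs were chosen after values were seen, and the smallest exact two-sided permutation p that 2 against 3 libraries allow is 0.2, so they are descriptions. Smarca2 over Smarca4 was 0.335 and 0.541 with PBS and 0.682, 0.932 and 0.962 with Sema3G. Arid4b over Arid1a was 0.434 and 0.620 with PBS and 1.46, 1.81 and 1.81 with Sema3G, so Arid4b passed from the less to the more abundant of the pair. The same held for Kdm3b over Kdm3a, at 0.319 and 0.500 against 1.03, 1.09 and 1.14, and for Chd4 over Chd3, at 0.738 and 0.915 against 1.11, 1.29 and 1.73. Ezh2 over Ezh1 was 0.170 and 0.158 with PBS and 0.414, 0.298 and 0.246 with Sema3G, from at most 25 UMIs of Ezh2 per library. Ep300 over Crebbp overlapped, at 0.709 and 1.08 with PBS and 0.711, 0.868 and 0.793 with Sema3G (exact permutation p = 0.8). Of the 11 pairs computed, Ep300 over Crebbp was the only one whose groups overlapped, a count that follows from choosing pairs with their values seen.

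**Figure D3:**
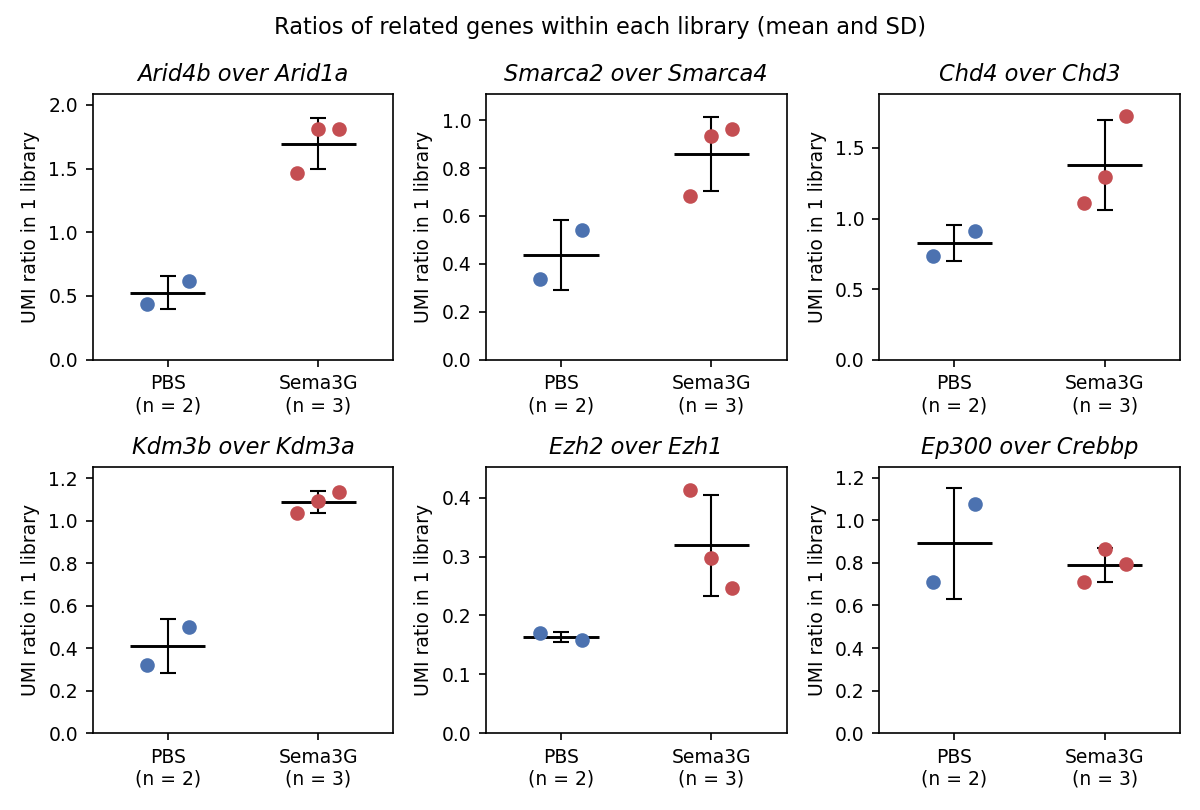
Ratio of the UMIs of related genes in each library, with 1 panel per pair and a vertical axis from 0; points are libraries, lines group means and bars SD. The groups are apart for 5 of the pairs, such as Arid4b over Arid1a (0.434 and 0.620 with PBS, 1.46 to 1.81 with Sema3G), and overlap for Ep300 over Crebbp.

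Other chromatin genes that the symbol rule does not match were listed by role, and 77 of them were tested. Their median log2 difference was -0.15, near that of all genes. Limma called 7 of the 77 higher, against 1.59% of all genes, and 0 lower, against 0.218%. By edgeR 7 of 71 were higher, against 4.05% of all genes, and 0 lower. Suz12, a core subunit of Polycomb repressive complex 2, had 17 and 23 UMIs with PBS and 73, 76 and 81 UMIs with Sema3G (log2 difference 1.71, adjusted p = 0.0014 from limma), and was called with each library left out. Gatad2b, a NuRD subunit, had 20 and 34 UMIs with PBS and 51, 99 and 92 UMIs with Sema3G (1.35, adjusted p = 0.0194), and Tet3, which oxidises methylated cytosine, had 38 and 40 against 77, 98 and 104 (1.05, adjusted p = 0.0227). Of 10 further remodeling genes, 7 were above both PBS libraries in every Sema3G library, against 11.9% of all genes tested. The other 4 called by limma were among the 10. These were Atrx, which with Daxx deposits histone H3.3 in heterochromatin (1.05, adjusted p = 0.0114), Baz2a, a subunit of the complex that silences ribosomal RNA genes (1.22, adjusted p = 0.0282), and Ep400 (0.87, adjusted p = 0.0479) and Srcap (1.89, adjusted p = 0.0395), ATPases that exchange histone H2A.Z. Srcap rested on 3 and 4 UMIs with PBS. Apart from Suz12, the limma adjusted p of each of the 7 was between 0.0561 and 0.300 without PBS replicate 1, Sema3G replicate 2 or Sema3G replicate 3, and that of Ep400 was 0.108 without PBS replicate 2. No subunit of the COMPASS methyltransferase complexes was called by limma or edgeR. At an unadjusted limma p under 0.05, 0 of 7 were higher and 3 lower, against 6.83% and 14.2% of all genes tested.

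Gene structure moved with the differences. Across 90 protein-coding members, Spearman's rho of the log2 difference was 0.50 with gene span and -0.57 with the GC content of the longest transcript, against 0.31 and -0.34 over 9740 protein-coding genes. These are descriptions across genes, which share the same 5 libraries. The 6 members called spanned 67.6 to 226 kb, and their transcripts had 40.7% to 51.1% GC. Among genes over 65.0 kb, 40 members had a median log2 difference of 0.43 against 0.03 over all 1948 genes of that span. In the other 4 bins of 1948 genes each, from the shortest span to the longest, the members' median lay over that of all genes by 0.39 (4 members), 0.041 (7 members), 0.16 (16 members) and 0.023 (23 members), against 0.40 in the bin over 65.0 kb. After a trend on GC content and span was removed from each library, Arid4b, Ash1l and Smarca2 were still called by limma (adjusted p 0.00580, 0.0123 and 0.0283), while the adjusted p was 0.0514 for Arid4a, 0.102 for Chd1 and 0.118 for Chd9.

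**Figure D4:**
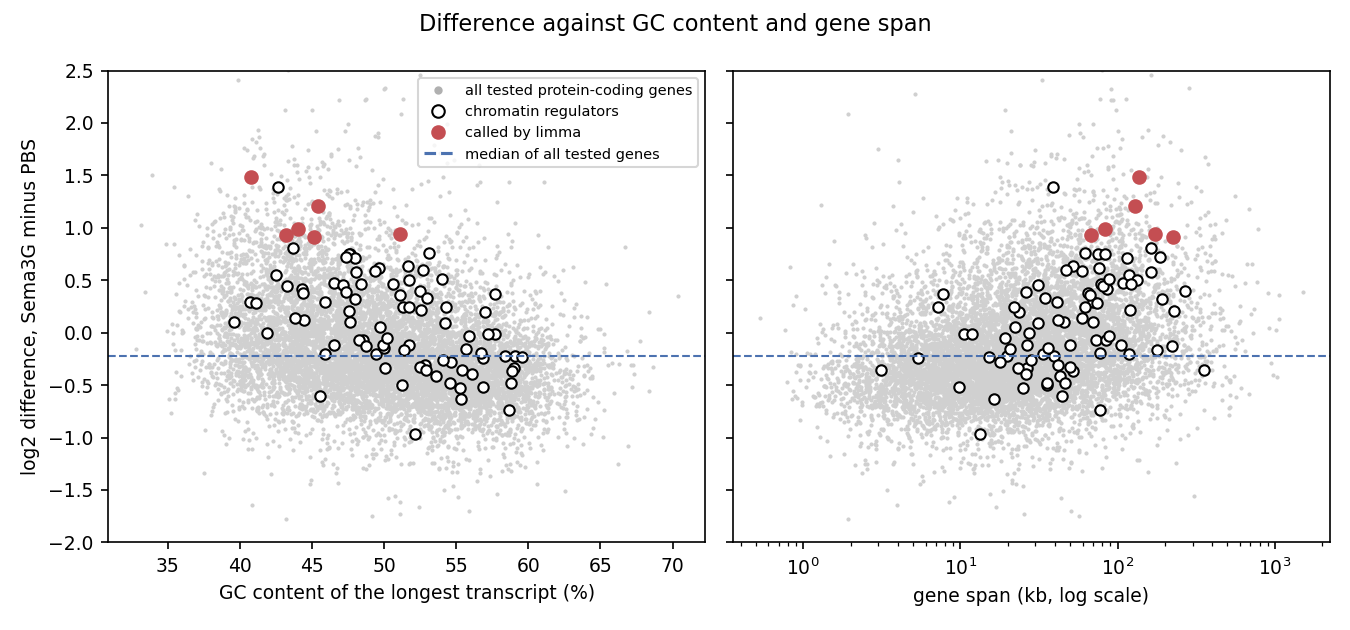
Log2 difference of each tested protein-coding gene against the GC content of its longest transcript (left) and against gene span on a log axis (right). Grey dots are all genes, open circles the chromatin regulators and red points the 6 called, which lie at 40.7% to 51.1% GC and 67.6 to 226 kb; 7 genes fall outside the vertical range.

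The summed share of the members moved together with Rn45s and Malat1. Their UMIs were 0.595% and 0.658% of the listed UMIs other than Rn45s with PBS, and 0.773%, 0.921% and 0.967% with Sema3G. Rn45s took 1.01% and 3.19% of the library total with PBS and 6.31%, 7.40% and 7.88% with Sema3G. Malat1, a nuclear non-coding RNA, had 1069 and 2519 UMIs with PBS and 4568, 8840 and 11321 UMIs with Sema3G, whereas Neat1, another, had 3645 and 4763 against 2662, 3651 and 3342 and was lower in CPM in every Sema3G library. The order of the libraries was the same for the members' share, Rn45s and Malat1. In all 6 called members PBS replicate 2 was above PBS replicate 1, by 1.11 to 1.53-fold, as in 48 of the 91 members tested, and Sema3G replicate 1 was the lowest of the Sema3G libraries. With the Rn45s share as a covariate limma called 0 members, with adjusted p values from 0.725 to 0.999 for the 6. Their log2 differences in that fit were 0.46 for Smarca2, 0.23 for Arid4b, 0.055 for Ash1l, 0.0092 for Chd9, -0.36 for Arid4a and -0.58 for Chd1, where the median of all genes was 0.20, so 4 of them lay under that median and Arid4b and Smarca2 over it. Of the members called by edgeR but not by limma, Arid5b had 1.26 in that fit, Nsd1 0.97, Setd5 0.48, Crebbp 0.40, Brd1 0.073 and Chd2 -0.16. Only 2 residual degrees of freedom are left in it, and 89.5% of the variation in the share is between the groups, so the Rn45s share and the treatment cannot be told apart.

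**Figure D5:**
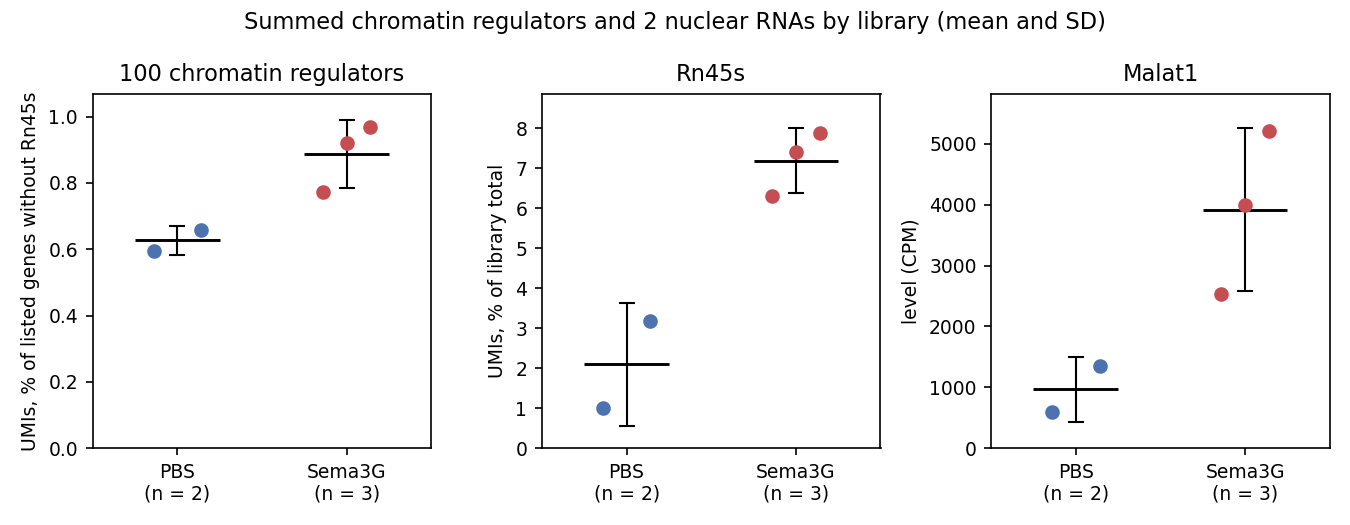
Share of the 100 chromatin regulators among listed UMIs other than Rn45s (left), share of Rn45s in the library total (middle) and level of Malat1 in CPM (right). Points are libraries, lines group means and bars SD, with axes from 0; PBS replicate 1 is lowest and Sema3G replicate 3 highest in each panel (0.595% to 0.967% for the members).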

How the data were processed

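RNA of 5 BMM samples was purified with TRIzol, and the authors made QuantSeq 3′ libraries with UMIs, sequenced them on a NextSeq500, mapped the reads to mm10, and counted UMIs per gene with Strand NGS. EdgeR is named for normalization and testing, and version 3.12 of it stands in the submitters' processing notes. Other program versions, the gene annotation and the strand setting: not given in the sources used here. Deposited by the authors were CPM values and 3 columns of their own comparison, a p-value, a q-value and a ranking score, which were not used.

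All values were whole multiples of 1 step per library (100% within 0.01 of a whole UMI count), which gave the counts. edgeR's test had been planned for counts, and since the unit is CPM, limma's two-sided test (limma 3.58.1 in R 4.3.3, mean-variance trend) was applied to log2(CPM + 1) of all 10088 genes whose mean reached 1 CPM, adjusted by Benjamini-Hochberg. The recovered counts were tested by edgeR (4.0.16, quasi-likelihood) and by DESeq2 (1.42.0). Scripts were tested on simulated data. Families follow the name stems, with Ezh1, Ezh2, Ash1l and Nsd1 among the methyltransferases and Ep300 and Crebbp among the acetyltransferases. All 100 symbols matched GENCODE M21, 2 of them through RefSeq synonyms. Gene span and transcript GC content came from GENCODE and promoters from RefSeq.

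Named are members past an adjusted p of 0.05 by limma or edgeR, the most abundant member and the largest rise and fall of each family among members averaging 5 CPM or more, the 6 genes named singly in the symbol rule, and members with textbook roles. The paralogue pairs, Kdm3a in them, and Smarca5-ps were chosen after their values were seen, as were Rn45s, Malat1 and Neat1 by earlier work. The members, lists and tests were chosen with earlier results of these data known. Alternatives were other pseudocounts (0.1 and 5), no filter or one at a mean of 5 CPM, other scalings and tools, a replicate block, and each library left out. The Rn45s covariate, the sum of Sema3G replicates 2 and 3 and the GC content and span correction were added after seeing the data. Floors in CPM cover counting error only. The values of 1 named member are not reported here.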

Additional observations from a re-analysis of the deposited data

How the results depend on the processing

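UMIs on listed genes numbered 1283029 to 1487137 per library, which limits what can be seen of members with few UMIs, and 2 against 3 libraries limit every test. None of the 23 alternatives, the tools and leave-outs included, called a member lower.

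Against 6 members called, limma called 16 with CPM over listed genes other than Rn45s, 11 with TMM-scaled CPM, 3 with the GC content and gene span trends removed, 1 with Sema3G replicates 2 and 3 summed and 0 with the Rn45s share as a covariate, while edgeR called 12 and DESeq2 10. In the same order, over all genes there were 496, 322, 126, 19, 98, 330 and 234 called higher, against 160. Limma called 4 members with no filter and 4 with a pseudocount of 0.1, Chd1 and Chd9 being lost, and 5 with a mean of at least 5 CPM, Chd1 being lost, beside 104, 120 and 151 of all genes higher. Leaving out 1 library at a time gave 1 to 20, TMM scaling included, beside 27 to 498 of all genes called higher. Of the companion chromatin genes 7 were called, and 13 with CPM over listed genes other than Rn45s, 4 with no filter, 1 with the replicates summed, 0 with the covariate, and 1 to 12 with a library left out. With the covariate the log2 difference of Suz12 was 1.33, of Ep400 1.19, of Tet3 0.84, of Atrx 0.088, of Srcap -0.055, of Gatad2b -0.39 and of Baz2a -1.02, so some lost calls kept a large difference. The median log2 difference of the members, 0.12, was 0.39 with CPM over listed genes other than Rn45s, 0.30 with TMM-scaled CPM, 0.27 with quantile normalization, 0.19 with the trends removed, -0.067 with the covariate and 0.10 to 0.40 with a library left out. Relative to all genes it was 0.34, and -0.27 with the covariate. The members above both PBS libraries were 28, and 43 with CPM over listed genes other than Rn45s (47.3%, against 21.3% of all genes). Those below were 17, but 7 with TMM-scaled CPM (7.69%, against 15.9%), 4 with CPM over listed genes other than Rn45s (4.4%, against 10.5%), and 17 to 26 with a library left out (18.7% to 28.6%, against 30.0% to 50.2%).

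With the Rn45s share as a covariate, 18 of 40 named members changed side relative to the median of all genes, as did 44.5% of all genes tested, and 4 of the 18 are among the 6 called. They were Ash1l (-0.15), Chd9 (-0.19), Arid4a (-0.56) and Chd1 (-0.79), and, not called by limma (Brd1 and Chd2 were called by edgeR and DESeq2), Brd1 (-0.13), Kmt2e (-0.24), Kmt2a (-0.28), Brd2 (-0.32), Chd2 (-0.36), Arid1a (-0.51), Kmt2d (-0.67), Kdm3b (-0.80), Chd4 (-0.86), Kat6a (-0.91), Kdm7a (-1.005), Ep300 (-1.08), Smarcb1 (1.31) and Arid5a (0.018). Under the other alternatives the members that changed side were not called by limma. Relative to the median of all genes, Kdm7a was at -0.079, Kdm6b at 0.21, Arid1a at -0.0086 and Setdb1 at -0.011 with the trends removed. Kdm6b was at 0.016 with CPM over listed genes other than Rn45s, 0.0033 with DESeq2, 0.010 with TMM-scaled CPM, 0.029 with edgeR, 0.012 with a mean of 5 CPM, 0.015 with a pseudocount of 0.1 and 0.015 with quantile normalization. Arid1a was at -0.017 with the replicates summed, -0.019 with no filter, -0.025 with a pseudocount of 5 and -0.040 with the replicate block. Kmt2d was at -0.00380 with the replicates summed, -0.039 with no filter, -0.036 with a pseudocount of 5 and -0.12 with the replicate block. Setdb1 was at -0.024 with no filter and -0.13 with the block. With a library left out the ranges were -0.025 to 0.67 for Kdm7a, -0.24 to 0.013 for Brd9, -0.33 to 0.0037 for Chd3, -0.72 to 0.095 for Smarcb1, -0.13 to 0.15 for Kdm6b, -0.066 to 0.12 for Arid1a, -0.16 to 0.17 for Kmt2d, -0.13 to 0.14 for Setdb1, -0.082 to 0.21 for Hdac1, -0.36 to 0.68 for Hdac3 and -0.34 to 0.16 for Kdm5c. The cause was not tested. Over the 40 named members and 23 alternatives, the covariate included, 765 of 920 values kept their direction and their side of the threshold. Without changing side 38 lost a call and 50 gained one, and 67 changed side. Among the 67 are the 4 called members that changed side with the covariate, whose calls were lost too.

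The replicate numbers are shared by 2 pairs only, whose deviations correlated at 0.173 and 0.111, so the pairing is not shown. With the replicate block limma called 9 members higher, the 6 among them, and 298 of all genes higher and 275 lower, with 1 residual degree of freedom before the spread is pooled over genes.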
